A study of Mus musculus with 4 samples.

Results

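The immunoglobulin heavy chain variable (Ighv) genes encode the first part of the antibody heavy chain, and here they are all the genes of the count matrices whose symbol starts with Ighv: 185 of 31053 genes. A developing B cell joins 1 of them to a D and a J segment by cutting and rejoining its DNA, and the joined exon is transcribed together with a constant gene such as Ighm. A mature B cell therefore uses 1 Ighv gene from its productive heavy chain allele, T cells use none, and plasma cells make the same transcript in much larger amounts. In the spleen, follicular B cells recirculate through the follicles, marginal zone B cells sit at the border of the white pulp, and transitional B cells are recent arrivals from the bone marrow.

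Splenocytes sorted from C57BL/6 mice were profiled in 4 droplet single-cell RNA libraries, 1 for each group, so no difference between groups has a replicate check and no p-value is given. The groups were young wild type (young WT), aged wild type (aged WT), aged mice with miR-146a deleted in the whole body (aged miR-146a knockout), and aged mice with that deletion plus a T cell conditional deletion of miR-155 (aged double knockout). The wild-type mice were miR155 fl/fl, that is, their miR-155 gene was flanked by loxP sites. Spleens of 3 to 6 mice, aged for 15 months, were pooled for each aged library. The sources used here do not give the age of the young animals or the driver of the T cell deletion. Live CD45+ cells of low forward and side scatter were sorted, a gate set on lymphocytes. Both 3′ and 5′ library chemistry appear in the labels. This matters here because the V exon lies at the 5′ end of the heavy chain transcript, and in a 3′ library reads rarely reach it.

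The libraries held 5702 to 7626 barcodes called as cells and 17561683 to 22399381 unique molecular identifiers (UMIs, each standing for 1 captured RNA molecule). The authors' cell type names put 12844 barcodes in 5 B cell types and 8256 in T cell types. T cells carried the markers of their name: 6 T cell markers summed to 3910 to 4925 CPM (UMIs in 1e6 UMIs of those cells), and 5 B cell markers summed to 89.6 to 209 CPM against 7788 to 8525 CPM in follicular B cells (Fo B). Cells named GC Centroblast did not carry theirs: the 5 germinal centre markers summed to 9.19 to 23.9 CPM, against 10.5 to 14.4 CPM in Fo B and 183 to 826 CPM in cells named GC Centrocyte. The 3 cycling markers were likewise at 6.89 to 15.3 CPM in GC Centroblast and 774 to 1171 CPM in GC Centrocyte, so these names are used below only as the authors' labels. The libraries shared 418 cell barcodes over their 6 pairs, and 0 of these carried the same Ighv gene in both libraries. Few barcodes held any Ighv UMI, so a match was unlikely in any case and this 0 settles nothing.

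By the GENCODE M21 annotation of GRCm38, all 185 genes lie on mouse chromosome 12, from Ighv5-1, which starts at position 113572927 nearest to the D, J and constant genes, to Ighv1-86, which ends at position 116010093. Of these, 115 are annotated as genes and 70 as pseudogenes, and Ighv5-8 and Ighv1-13 each stand for a pair of overlapping entries on opposite strands. The ends of the 10 genes with the highest mean share of B cell Ighv UMIs are printed because they show how alike the counted sequences are, and because the end of the V exon is the stretch that joins the D segment. Each line is the last 60 bases of the V exon on the minus strand, 5′ to 3′, from the GENCODE M21 transcripts (GRCm38), and the capitals run from the conserved cysteine codon to the end of the germline exon.
Ighv1-26: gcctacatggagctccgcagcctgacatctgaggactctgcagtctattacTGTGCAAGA
Ighv1-9: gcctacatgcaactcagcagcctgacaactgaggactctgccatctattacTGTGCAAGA
Ighv1-64: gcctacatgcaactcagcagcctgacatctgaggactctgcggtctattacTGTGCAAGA
Ighv1-82: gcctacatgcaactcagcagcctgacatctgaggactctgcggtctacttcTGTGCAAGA
Ighv3-6: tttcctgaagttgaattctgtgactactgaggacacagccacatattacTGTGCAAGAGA
Ighv9-3: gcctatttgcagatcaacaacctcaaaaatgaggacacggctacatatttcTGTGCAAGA
Ighv1-18: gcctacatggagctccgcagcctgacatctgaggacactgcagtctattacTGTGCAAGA
Ighv5-4: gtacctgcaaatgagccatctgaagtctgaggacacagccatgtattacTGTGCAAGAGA
Ighv1-5: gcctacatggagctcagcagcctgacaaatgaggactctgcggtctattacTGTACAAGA
Ighv1-72: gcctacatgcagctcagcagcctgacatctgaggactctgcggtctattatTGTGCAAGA
Of these ends, Ighv3-6 and Ighv5-4 carry 11 bases from the cysteine codon onwards and the others 9. Ighv1-26 and Ighv1-18 had 97.4% identity over the whole V exon. Ighv1-72 is 99.0% identical to Ighv1-62-3, and only 47.2% of its 90-base windows were found in no other annotated transcript. For Ighv1-9, Ighv1-64, Ighv1-82, Ighv3-6, Ighv9-3 and Ighv1-5, 100% of these windows were their own, against 88.5% for Ighv1-26, 97.9% for Ighv5-4 and 98.1% for Ighv1-18. How the authors' counting split reads between near copies could bear on these 3 genes and on Ighv1-72. Across all 185 genes, 120 had only such windows, and these held 472 of the 793 Ighv UMIs in B cells.

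Ighv transcripts were rare in B cells and still above the level in T cells, which stands here for free RNA. B cells carried 179 Ighv UMIs for young WT, 199 for aged WT, 202 for the aged miR-146a knockout and 213 for the aged double knockout, which is 23.3, 23.1, 26.0 and 25.2 CPM. Exact 95% Poisson intervals, which cover counting error only, ran from 20.05 to 27.0, 20.02 to 26.6, 22.6 to 29.9 and 21.9 to 28.8 CPM. The 4 intervals overlap. T cells carried 9, 21, 12 and 12 Ighv UMIs in the same order, or 1.13, 4.60, 3.04 and 2.38 CPM, so B cells were 20.7, 5.03, 8.57 and 10.6 times as high as T cells of their own library. In all 4 libraries the interval of that ratio stayed above 3, the lowest bound being 3.20 in aged WT. Myeloid cells, which also lack a rearranged heavy chain gene, had 1.20, 5.65, 5.55 and 4.53 CPM from 1, 4, 16 and 17 UMIs.

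Few B cells showed any Ighv UMI: 4.95% for young WT, 5.11% for aged WT, 7.24% for the aged miR-146a knockout and 6.03% for the aged double knockout. The median B cell held 1940.5, 1928, 2729 and 2111.5 UMIs in these libraries. Among B cells with at least 1000 UMIs, each thinned to 1000, the shares were 2.40%, 2.42%, 2.64% and 2.75%. In T cells, at median depths of 2613, 2279, 2265 and 2143 UMIs, the share was 0.310%, 1.20%, 0.793% and 0.576%. The T cell level was not the same in all libraries: aged WT was 4.08 times young WT (95% interval 1.79 to 10.1 from 21 and 9 UMIs). Of the 54 Ighv UMIs in T cells, 49 belonged to genes also seen in B cells of the same library. In B cells, 42 genes were seen in every library. The share for UMIs of another origin was not computed, so this overlap names no source. The 54 UMIs were led by Ighv1-55 with 5, and 0 came from pseudogenes. For each 1000 UMIs of heavy chain constant genes, T cells held 2.20, 4.21, 2.93 and 2.36 Ighv UMIs and B cells 4.62, 4.02, 5.16 and 4.53.

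Between libraries the summed Ighv level of B cells changed little. Aged WT was at 0.991 of young WT (0.805 to 1.22), the aged miR-146a knockout at 1.13 of aged WT (0.921 to 1.38), and the aged double knockout at 0.967 of the aged miR-146a knockout (0.794 to 1.18). The last library stood at 1.09 times aged WT (0.893 to 1.33). Each of these intervals holds 1, so a difference in either direction was not detectable at this depth.

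Among B cell types the order was clearer. Fo B had 31.0, 30.6, 35.2 and 34.4 CPM in young WT, aged WT, the aged miR-146a knockout and the aged double knockout, and marginal zone B cells (MZ B) had 24.3, 22.6, 23.9 and 31.8 CPM. The ratio of MZ B to Fo B was 0.785, 0.739, 0.679 and 0.922, below 1 in 4 of 4 libraries, with an interval that left out 1 only in the aged miR-146a knockout (0.470 to 0.972). Transitional B cells (Trans B) were lower, at 17.4, 11.6, 14.2 and 19.1 CPM from 15, 8, 9 and 14 UMIs. Their ratio to Fo B was 0.562, 0.381, 0.404 and 0.555, and all 4 intervals lay below 1, the highest bound being 0.982 in young WT. GC Centrocyte cells had 7.49, 6.34, 8.16 and 6.11 CPM from 2, 2, 6 and 5 UMIs, and their ratio to Fo B, 0.177 to 0.242, also lay below 1 with its interval in every library. The 6 T cell markers summed to 283 to 1199 CPM in these cells against 30.0 to 69.6 CPM in Fo B, and the 5 B cell markers to 4480 to 5292 CPM against 7788 to 8525 CPM, and their part in the ratio was not tested. These cells were deep, with a median of 5228 to 6682 UMIs, and the intervals of their levels overlapped those of T cells of the same library in 4 of 4 libraries.

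GC Centroblast cells had 13.0, 17.8, 27.8 and 12.3 CPM, with the aged miR-146a knockout highest. The aged double knockout was at 0.441 of the aged miR-146a knockout (0.252 to 0.747), and of the ratios between libraries in the 5 B cell types it was the only one whose interval left out 1. A single cell carried 13 of the 51 Ighv UMIs of the aged miR-146a knockout, all from Ighv1-5, among 4099 UMIs in all and 57 of Ighm. Without the cell with the most Ighv UMIs in each library the levels were 10.8, 16.6, 20.7 and 11.1 CPM and the ratio 0.536 (0.292 to 0.952).

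**Figure D1:**
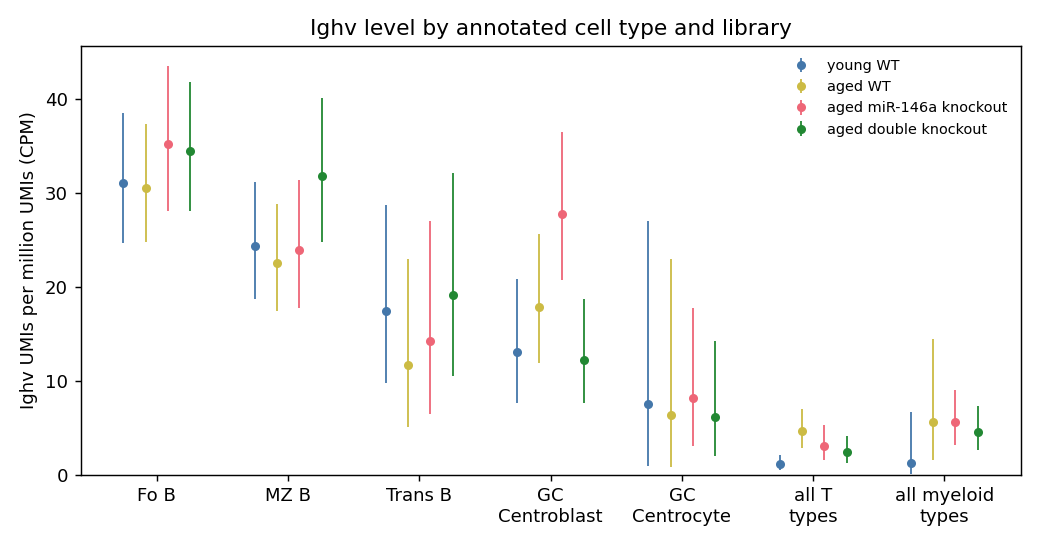
Ighv level in CPM (vertical axis) in each annotated B cell type, all T cell types and all myeloid types (horizontal axis), 1 point per library, with exact 95% Poisson intervals as bars. Fo B sits highest at 30.6 to 35.2 CPM and T cells lie between 1.13 and 4.60 CPM, and the 1 GC Centroblast point at 27.8 CPM includes the cell with 13 Ighv1-5 UMIs.

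The 793 Ighv UMIs of B cells came from 89 of the 185 genes. Annotated genes held 778 of them and pseudogenes 15, or 1.89% (1.06 to 3.10, exact Clopper-Pearson) of the UMIs against 37.8% of the entries. By library the pseudogene share was 2.23%, 2.01%, 1.98% and 1.41% in the order used above. The pseudogene UMIs were 6 of Ighv1-2, 4 of Ighv1-41, 3 of Ighv3-2 and 1 each of Ighv1-14 and Ighv1-73. In all barcodes of all libraries together, annotated or not, 20 genes and 63 pseudogenes had no UMI, so 95 of 115 genes and 7 of 70 pseudogenes were seen.

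UMIs were spread widely over the seen genes. The highest total was 33 UMIs, the 17 most counted genes held at least 50% of B cell UMIs, 30 genes reached 10 UMIs, 42 genes were seen in B cells of every library and 17 in only 1. The family Ighv1, the largest with 93 entries, held 57.0%, 54.3%, 49.5% and 54.5% of Ighv UMIs, 53.7% over all libraries (50.2 to 57.2) against 50.3% of entries. Ighv5 followed with 12.9% from 22 entries, and Ighv14, Ighv3, Ighv9, Ighv2 and Ighv6 each held between 4.16% and 5.55%. Families did not hold UMIs in proportion to their entries. Ighv8, with 16 entries, held 2.65% (1.65 to 4.02), while Ighv14 and Ighv9, with 4 entries each, held 5.55% (4.06 to 7.38) and 5.04% (3.63 to 6.81). Entries include pseudogenes, whose part in these comparisons was not tested. Ighv12 had 0 of 793 UMIs, with an exact upper bound of 0.464%. Between libraries, the interval of a family's ratio left out 1 in 1 of 14 families for aged WT against young WT and in 0 of 15, 0 of 14 and 0 of 14 families for the other comparisons. That family was Ighv7, with 6 UMIs in young WT and 0 in aged WT.

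**Figure D2:**
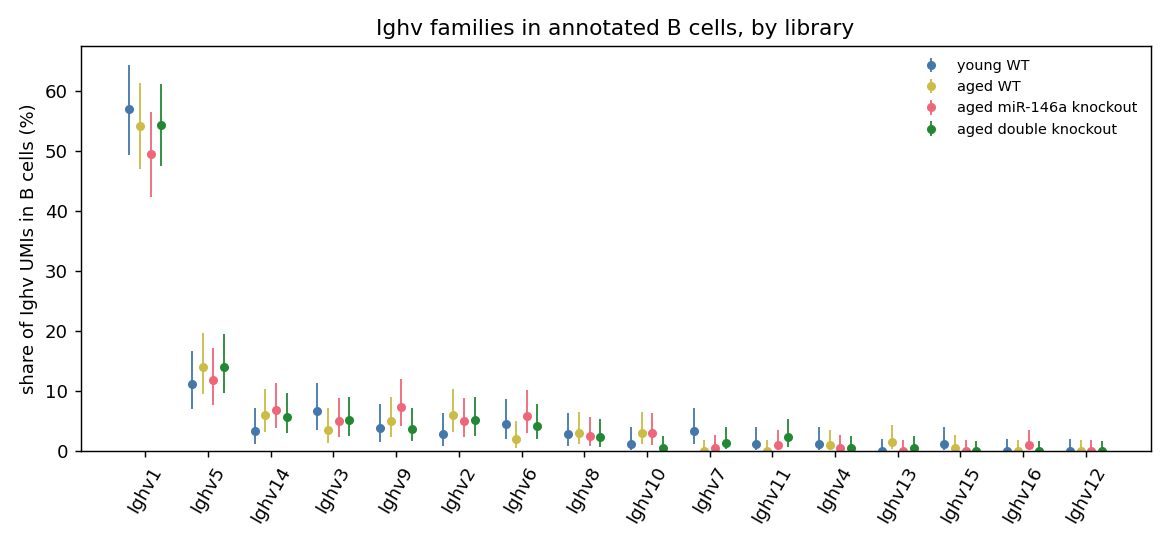
Share of the Ighv UMIs of annotated B cells (percent, vertical axis) held by each Ighv family (horizontal axis), 1 point per library, with exact 95% binomial intervals. Ighv1 lies between 49.5% and 57.0% in the 4 libraries and no other family's point passes Ighv5.

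Use did not pile up at one end of the locus. The 62 entries nearest to the D segments held 35.6% of B cell Ighv UMIs (32.2 to 39.0), the middle 62 held 30.6% (27.5 to 34.0) and the 61 farthest 33.8% (30.5 to 37.2). The farthest entries held 36.9% for young WT, 38.2% for aged WT, 26.2% for the aged miR-146a knockout and 34.3% for the aged double knockout. The aged miR-146a knockout was lowest, with an interval (20.3 to 32.9) that overlaps those of all 3 other libraries.

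**Figure D3:**
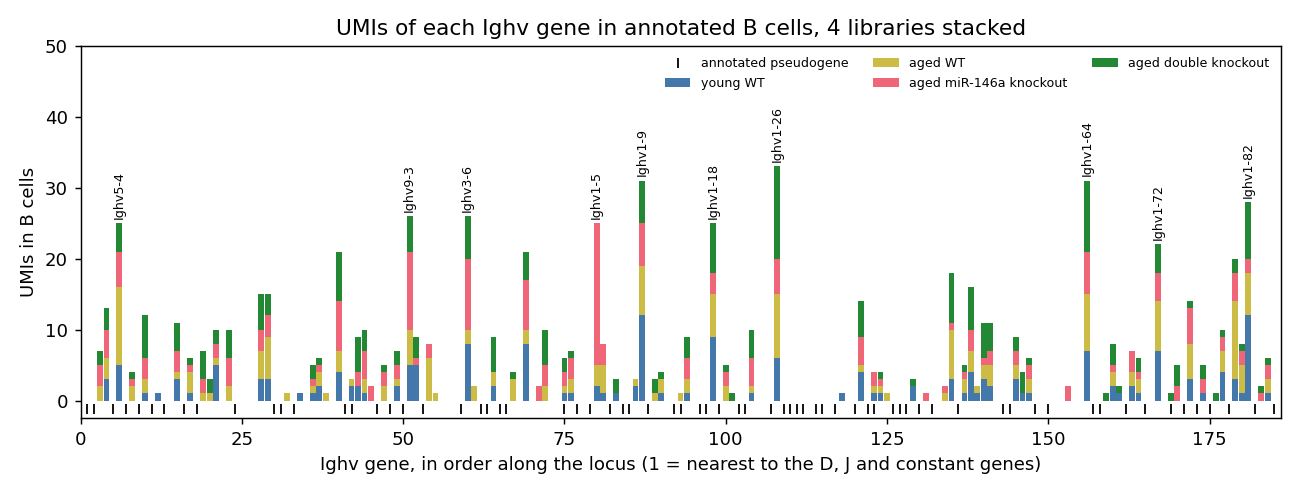
UMIs of each Ighv gene in annotated B cells (vertical axis), stacked by library, in order along the locus from the D-proximal to the distal end (horizontal axis, rank), with ticks under the axis for annotated pseudogenes. The 10 labelled genes lie along the whole locus, and the Ighv1-5 bar is mostly 1 library.

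Among single genes, Ighv1-26 was the most counted in B cells, with 6, 9, 5 and 13 UMIs in young WT, aged WT, the aged miR-146a knockout and the aged double knockout, a mean share of 4.11%. Ighv1-9 had 12, 7, 6 and 6 UMIs, highest in young WT. Ighv1-64 had 7, 8, 6 and 10 UMIs, with shares of 2.97% to 4.69%. Ighv1-82 had 12, 6, 2 and 8 UMIs and Ighv1-18 had 9, 6, 3 and 7, both highest in young WT and lowest in the aged miR-146a knockout. Ighv3-6 had 8, 2, 10 and 6 UMIs, lowest in aged WT, and Ighv9-3 had 5, 5, 11 and 5, highest in the aged miR-146a knockout. Ighv5-4 had 5, 11, 5 and 4 UMIs, highest in aged WT. Ighv1-72, the segment known in C57BL/6 mice for antibodies to the hapten NP, had 7, 7, 4 and 4 UMIs. Ighv1-5 had 2, 3, 20 and 0 UMIs, and 13 of the 20 were from the 1 GC Centroblast cell described above.

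Another 4 named segments, known from B-1a cells, which renew themselves, or from early life, were, like most Ighv genes, under 10 UMIs in B cells in all. Ighv11-2, used in antibodies to phosphatidylcholine, had 2, 0, 2 and 5 UMIs in B cells, and Ighv12-3, used for the same specificity, had 0 in every library. Ighv7-1, which encodes the heavy chain of the T15 antibody to phosphorylcholine, had 1 UMI in young WT and 0 in the others. Ighv5-2, the most D-proximal functional segment of this strain and one used often early in life, had 0, 2, 3 and 2 UMIs.

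By the rule for calling a gene between libraries, a ratio past 1.5-fold with at least 50 UMIs over both libraries, 0 Ighv genes could be assessed, since the highest total of a gene was 33. Over all genes the rule called 2.25% higher and 1.85% lower in aged WT against young WT, 5% and 2.6% in the aged miR-146a knockout against aged WT, 1.33% and 1.4% for the aged double knockout against the aged miR-146a knockout, and 4.6% and 2.34% in the aged double knockout against aged WT. A class of 10 to 49 UMIs, added after the counts were seen, took 12, 11 and 10 Ighv genes into these comparisons. Of the 12, 3 were past 1.5-fold higher and 5 lower in aged WT, where 21.3% and 19.2% of all genes in this class were. Of the 11, 4 were higher and 3 lower in the aged miR-146a knockout, with 31.3% and 16.5% of all such genes. Of the 10, 3 were higher and 4 lower in the aged double knockout, with 15.3% and 21% of all such genes. In the aged double knockout against aged WT, 1 of 11 was higher and 3 lower, with 27.6% and 15.9% of all such genes. At these counts most ratios past 1.5-fold have intervals that hold 1.

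The intervals left out 1 for few genes. None of the 12 genes did so in aged WT against young WT. Ighv3-6 was 5.54 times as high in the aged miR-146a knockout as in aged WT (1.18 to 52.05), from 10 and 2 UMIs. Ighv1-5 was 7.39 times as high in the same comparison (2.19 to 38.9), and without the top cell of each library it was 3.88 times as high (0.739 to 38.3) from 7 and 2 UMIs. With 0 UMIs in the aged double knockout, its ratio there to the aged miR-146a knockout had an upper bound of 0.186, or 0.636 without the top cell. Ighv1-80 was at 0.185 of aged WT in the aged double knockout (0.0199 to 0.847), from 2 and 11 UMIs. Counted as cells led by a gene, each cell assigned to the Ighv gene with most of its UMIs, 79, 77, 77 and 81 genes were compared and 3 ratios had intervals without 1. Ighv7-3 led 0 of 187 cells in aged WT and 5 of 162 in young WT, Ighv1-5 led 0 of 200 in the aged double knockout and 7 of 178 in the aged miR-146a knockout, and Ighv1-80 led 2 of 200 in the aged double knockout and 10 of 187 in aged WT. With this many ratios computed and no replicates, these are the extremes of the set and are given as values.

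MZ B and Fo B had overlapping intervals for the shares of the families Ighv1, Ighv5 and Ighv14. Ighv1 held 55.4% of 249 UMIs in MZ B and 52.9% of 365 in Fo B, Ighv5 12.9% and 11.0%, and Ighv14 4.42% and 4.93%. No Ighv gene reached 50 UMIs over both types, a class in which 1.02% of all genes were past 1.5-fold higher and 0.577% lower in MZ B in each library. Of 21 genes with 10 to 49 UMIs, 0 were past 1.5-fold in the same direction in all 4 libraries, where 2.45% of all such genes were higher and 0.8% lower in MZ B. Ighv1-82 had 5, 1, 1 and 4 UMIs in MZ B and 6, 2, 1 and 4 in Fo B. Ighv1-26, with the lowest single ratio, had 2, 0, 0 and 5 UMIs in MZ B and 3, 6, 4 and 4 in Fo B.

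B cells with more than 1 Ighv UMI mostly had them from 1 gene. Over all libraries 46 B cells had at least 2 Ighv UMIs, and in 39 of these all came from 1 gene, 84.8% (71.1 to 93.7). For cells led by any Ighv gene, a random pair of different cells shared the leading gene in 1.90% of pairs. By library, 11 of 13, 6 of 9, 11 of 12 and 11 of 12 such cells had 1 gene. Of the T cells, 0 had more than 1 Ighv UMI and 54 had exactly 1. The repertoire of leading genes, expressed as the effective number of equally used genes (the inverse Simpson index, without its sample size bias), was 46.1 for young WT, 53.3 for aged WT, 53.8 for the aged miR-146a knockout and 53.8 for the aged double knockout, from 162, 187, 178 and 200 cells with a single leading gene. The number of genes calculated for 150 cells of each library was 59.0, 62.6, 60.6 and 59.8. Counted over UMIs in place of cells, the effective number was 41.6, 51.4, 41.3 and 52.8. In the aged miR-146a knockout, 13 of the 202 UMIs were of Ighv1-5 in 1 GC Centroblast cell. The part of that cell in the value of 41.3 was not tested. No error of the effective number can be had from 1 library. The rule chosen first, which asked for at least 2 UMIs in a cell, left 11, 6, 11 and 11 cells and gave a value in only 2 libraries, 27.5 in young WT and 55.0 in the aged miR-146a knockout.

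The largest amounts of single Ighv transcripts were in barcodes to which the authors gave no cell type. Plasma-like barcodes were taken as those with at least 4 of 6 plasma cell markers and at least 20 UMIs of Jchain, the chain that joins IgM and IgA into polymers. Some barcodes with a cell type name met this rule too and are not counted here. Those named T/B dbl were 2, 5, 3 and 12 in the library order used above. GC Centrocyte had 1, 2 and 3 in the aged libraries, and MZ B and Trans B 1 each in the aged double knockout. Those in B cell types are part of the B cell sums. The barcodes without a name numbered 12 for young WT, 50 for aged WT, 56 for the aged miR-146a knockout and 69 for the aged double knockout. They held 17, 50, 263 and 124 Ighv UMIs, or 92.7, 61.4, 259 and 108 CPM. A single barcode held 205 of the 263 in the aged miR-146a knockout, 77.9%, and another 61 of the 124 in the aged double knockout. Without the barcode with the most Ighv UMIs in each library the levels were 58.3, 49.2, 58.4 and 55.8 CPM, and their intervals overlap in all 4 libraries. For each 1000 UMIs of heavy chain constant genes these barcodes held 0.456, 0.282, 0.355 and 0.326 Ighv UMIs without the top barcode, below B cells in every library.

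The barcode with 205 UMIs had them all from Ighv1-9, among 20651 UMIs in all, with 3826 of Ighm and 943 of Jchain. The leading barcode of the aged double knockout had 60 UMIs of Ighv1-18 and 1 of Ighv1-26, the pair of genes with 97.4% identity, and 1731 of Ighm. Another barcode of that library had 13 UMIs of Ighv1-15 with 4903 of Ighm. A barcode with more Ighm could carry far fewer V UMIs: 1 in the aged miR-146a knockout had 7742 of Ighm and 4 of Ighv5-4. Ighv4-1 was spread over more barcodes, with 7 UMIs in 1 young WT barcode and 11, 7, 3 and 2 UMIs in 4 aged WT barcodes, and 0 in the plasma-like barcodes of both knockout libraries. The leading constant gene of these 5 barcodes was Ighg3 in the young WT barcode and in the aged WT barcode with 7 UMIs, and Ighm in the other 3. In annotated B cells Ighv4-1 had 6 UMIs in all. Ighv1-55 was seen in 9 plasma-like barcodes, in all 4 libraries, with 16 UMIs. These genes were picked after their values were seen.

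V exons of some of the genes that led the most heavily loaded barcodes are shown because the sequence is what the counts stand for. They are also shown because Ighv4-1 is unlike the rest. Each is the last 300 bases of the germline exon on the minus strand of chromosome 12 in GRCm38, from GENCODE M21, with capitals as above. Their positions are 114583569 to 114583868 for Ighv1-9, 114682632 to 114682931 for Ighv1-18, 114513330 to 114513629 for Ighv1-5 and 113948282 to 113948581 for Ighv4-1.
Ighv1-9: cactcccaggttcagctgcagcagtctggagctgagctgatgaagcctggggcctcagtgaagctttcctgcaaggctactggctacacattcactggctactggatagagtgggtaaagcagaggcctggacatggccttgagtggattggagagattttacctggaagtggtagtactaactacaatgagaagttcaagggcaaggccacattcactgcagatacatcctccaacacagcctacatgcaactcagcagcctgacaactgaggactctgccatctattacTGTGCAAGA
Ighv1-18: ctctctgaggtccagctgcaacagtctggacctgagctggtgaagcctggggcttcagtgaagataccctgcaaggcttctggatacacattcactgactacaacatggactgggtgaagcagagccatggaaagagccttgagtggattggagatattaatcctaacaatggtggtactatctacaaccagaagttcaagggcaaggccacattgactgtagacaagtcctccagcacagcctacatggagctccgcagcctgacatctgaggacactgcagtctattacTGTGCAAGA
Ighv1-5: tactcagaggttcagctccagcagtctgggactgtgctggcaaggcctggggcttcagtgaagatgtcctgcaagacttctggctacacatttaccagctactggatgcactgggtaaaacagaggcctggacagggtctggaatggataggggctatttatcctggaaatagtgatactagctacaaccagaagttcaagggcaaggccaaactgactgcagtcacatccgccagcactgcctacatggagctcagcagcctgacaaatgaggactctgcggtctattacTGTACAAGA
Ighv4-1: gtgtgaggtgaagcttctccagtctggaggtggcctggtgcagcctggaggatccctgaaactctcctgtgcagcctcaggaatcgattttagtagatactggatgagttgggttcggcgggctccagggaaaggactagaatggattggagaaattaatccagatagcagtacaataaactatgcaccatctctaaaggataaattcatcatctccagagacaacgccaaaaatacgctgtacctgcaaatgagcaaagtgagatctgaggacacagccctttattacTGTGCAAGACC
The nearest other annotated gene to Ighv4-1 is Ighv11-2, at 76.5% identity over the V exon. For Ighv1-9 it is Ighv1-62-1, at 90.2%, and for Ighv1-5 it is Ighv1-12, at 86.2%. Ighv1-15, which led a barcode with 13 UMIs, is not printed, and its nearest gene is Ighv1-23, at 98.4%. Of the 90-base windows of Ighv4-1, 92.6% were found in no other annotated transcript.

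**Figure D4:**
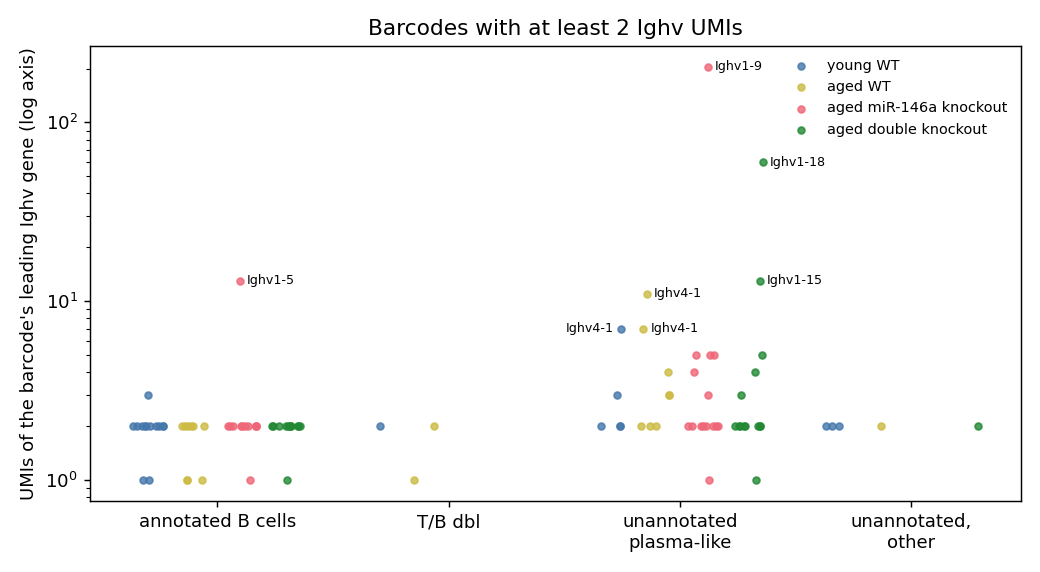
UMIs of the leading Ighv gene (log axis) in every barcode with at least 2 Ighv UMIs, for annotated B cells, barcodes the authors named T/B dbl, unannotated plasma-like barcodes and other unannotated barcodes (horizontal axis), coloured by library, with names for barcodes at 7 UMIs or more. B cells sit at 1 to 3 UMIs except the 1 with 13 of Ighv1-5, and plasma-like barcodes reach 60 and 205.

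In a list of 31 other genes of the B cell receptor and of V(D)J recombination, members past 1.5-fold were found in every comparison. In aged WT against young WT, 6 of 25 measured members were past 1.5-fold higher and 0 lower, against 2.25% and 1.85% of all genes. Among the higher ones were the constant genes Ighg1, Ighg2b, Ighg2c and Ighg3, and Jchain. T cells, the free RNA level, were higher for these genes in aged WT too. Ighg2c had 0.782 CPM in B cells and 0 in T cells of young WT, and 28.7 CPM in B cells and 22.4 CPM in T cells of aged WT. Jchain had 27.6 and 75.2 CPM in B cells of young and aged WT beside 18.7 and 62.02 CPM in T cells, and Ighg1 had 8.87 and 15.1 CPM beside 4.01 and 11.6 CPM. Ighg2b had 17.2 and 89.7 CPM beside 0.501 and 40.1 CPM, and Ighg3 had 11.9 and 52.9 CPM beside 7.26 and 20.6 CPM. The part of free RNA in these calls was not tested. In the aged miR-146a knockout against aged WT, 9 of 29 were higher (5% of all genes) and 1 lower (2.6%). For the aged double knockout against the aged miR-146a knockout, 1 of 30 was higher (1.33% of all genes) and 4 lower (1.4%). Against aged WT, 7 of 28 were higher in the aged double knockout (4.6% of all genes) and 1 lower (2.34%). The recombinase and surrogate light chain genes of B cell precursors were nearly absent in B cells of the wild-type libraries and present in B cells of both knockouts. In CPM, Dntt had 0, 0, 15.2 and 10.5 in B cells beside 4.13, 0.657, 0.253 and 1.59 in T cells. Vpreb1 had 0.913, 0.349, 53.4 and 34.7 CPM in B cells beside 1.75, 0.877, 2.03 and 1.78 CPM in T cells. The UMIs that follow are those of B cells. Dntt, the polymerase that adds bases at V(D)J junctions, had 0, 0, 118 and 89 UMIs, Rag1 had 2, 0, 57 and 40, Vpreb1 had 7, 3, 414 and 294 and Igll1 had 0, 0, 322 and 229. Ighm, the most counted heavy chain constant gene, had 4110, 4609, 3888 and 4415 CPM and was not past 1.5-fold in any of these comparisons, nor were Cd79a and Cd79b, the signalling chains of the receptor.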

How the data were processed

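Per the file headers and the submitters' processing notes, the authors deposited raw UMI counts per gene and barcode made with Cell Ranger 3.0.0 on mm10, and a cell type name per barcode (a label, not a measurement). How names were assigned, and how reads of near-identical genes were counted, the sources used here do not say. Counts were used as deposited. Named barcodes held 501 to 9001 UMIs, and no doublet caller was run beyond leaving out barcodes named T/B dbl. From these counts, sums per cell type and library were formed, with CPM over all genes, exact Poisson intervals for levels, Clopper-Pearson intervals for shares and conditional binomial intervals for ratios, all at 95% and for counting error only (Python 3.11.15, scipy 1.17.1). With 1 library per group there is no test. A gene was called where the ratio, with 1 count added, was past 1.5-fold at 50 UMIs or more over both libraries, and between MZ B and Fo B where this held in each of the 4 libraries. The genes named are the 10 with the highest mean share, those with the most extreme cell share ratio and 5 segments of known use; those led by single barcodes or spread over plasma-like barcodes, among them Ighv4-1, Ighv1-15 and Ighv1-55, were picked after their values were seen. Thinning used 1000 UMIs and left out cells with fewer. edgeR 4.0.16 and DESeq2 1.42.0 gave only the alternative scaling factors. Sequences and positions are from GENCODE M21 (GRCm38). The call rule was tested on simulated data only for genes with 50 UMIs or more, which no Ighv gene reached. The interval of ratios was tested at a single mean count, and the lower counts of most Ighv gene ratios were not covered. The Ighv genes and all lists were chosen with earlier results of these data known. Not every called gene of the B cell receptor list is reported by name here.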

Additional observations from a re-analysis of the deposited data

Results flagged for a closer look

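Ighv UMIs also appeared in some barcodes outside the named B and T cell types, at levels whose lower bound lay above the upper bound of T cells in the same library. In barcodes without a cell type name that did not meet the plasma-like rule, the level was 25.8 CPM in young WT (32 UMIs), 23.2 CPM in aged WT (46 UMIs), 10.3 CPM in the aged miR-146a knockout (39 UMIs) and 8.05 CPM in the aged double knockout (24 UMIs). In barcodes the authors named T/B dbl it was 14.5 CPM in young WT (10 UMIs), 26.7 CPM in aged WT (17 UMIs) and 19.4 CPM in the aged miR-146a knockout (8 UMIs), all flagged because no comparison above uses these barcodes. T/B dbl barcodes of the aged double knockout, at 8.63 CPM (3.47 to 17.8), and myeloid cells of all 4 libraries did not pass this bound. The source of these UMIs was not tested.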

How the results depend on the processing

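The 3 ratios of the summed Ighv level in B cells stayed within their main intervals under all 24 alternative values, 8 for each: 0.834 to 1.00 for aged WT against young WT, 1.06 to 1.24 for the aged miR-146a knockout against aged WT, and 0.947 to 1.04 for the aged double knockout against the aged miR-146a knockout. The count of Ighv genes past 1.5-fold was 0 in each direction and depended on the minimum count. With no minimum it was 25 higher and 21 lower for aged WT against young WT, 24 and 24 for the aged miR-146a knockout against aged WT, and 25 and 22 for the last pair. At that setting a gene with 1 UMI in 1 library and 0 in the other already passed, since 1 count is added. The share over all genes was not computed for it, so these counts are no result about Ighv genes. With 10 to 49 UMIs, a class chosen after seeing the data, it was 3 and 5, 4 and 3, and 3 and 4. The other alternatives kept a minimum of at least 50 counts that no Ighv gene reached, so their 0 says nothing about stability. For MZ B against Fo B the count was 0 in each direction with no minimum and with 10 to 49 UMIs, and the remaining alternatives, leaving out each library among them, had no gene to assess. The effective number of genes in young WT rose from 27.5 to 46.1 with cells of at least 1 UMI and to 41.6 by UMIs, and Fo B cells alone gave no value. Of 30 alternative shares of the 10 leading genes, 7 lay outside the main interval, which was that of the share pooled over libraries. Ighv1-5 without its top cell was among them, at 1.32% against 3.13%. The rest came from counting cells led by the gene with at least 2 UMIs, which left 11, 6, 11 and 11 cells by library. No paired analysis was possible because each group has 1 library, which leaves nothing to pair between groups, while cell types were compared within each library. Depth limits every single-gene statement: no gene passed 33 UMIs in B cells. Both 3′ and 5′ chemistry appear in the labels, and their part in the level was not tested.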
